A study of Mus musculus with 12 samples.

Results

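Collagens are proteins of the extracellular matrix, built from 3 α chains wound around each other in a triple helix. Of the 44450 loci measured in mouse heart, 44 carry the name of a collagen chain gene (Col, a type number, a and a chain number), and these were taken whatever their values. They were grouped by the kind of assembly their chains form into 11 fibrillar, 6 basement membrane, 9 fibril-associated, 6 beaded filament, 4 network or anchoring, 4 transmembrane, 2 multiplexin and 2 unclassed genes. Fibrillar collagens give tissue its tensile strength, basement membrane collagens form the sheets around muscle fibres and capillaries, and fibril-associated collagens sit on the surface of fibrils. In the heart most interstitial collagen is made by fibroblasts, which share the space between cardiomyocytes with capillaries, mural cells and macrophages.

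The libraries were made from heart tissue of C57BL/6N mice aged 11 weeks. The 3 control libraries come from mice of the genotype Mrpp3loxP/loxP and the 3 knockout libraries from mice of the genotype Mrpp3loxP/loxP, +/Ckmm. Both groups thus carry the loxP-flanked gene, and only the knockouts carry Ckmm, the name of the muscle creatine kinase gene, whose promoter is used to drive Cre recombinase in heart and skeletal muscle fibres. Which cells of these hearts lost the gene is not given in the labels, and loss of Mrpp3 and presence of the transgene cannot be told apart. MRPP3, now called PRORP, is the nuclease of mitochondrial RNase P, which frees tRNAs from mitochondrial transcripts. The comparison asks how RNA of the heart differs without it. Values are FPKM, fragments per length of transcript and per depth of library, so levels of different genes can be set roughly side by side. The annotation that gave the lengths is not known. A log2 change is the knockout minus the control mean of log2(FPKM + 0.5), so it is smaller than the true change where FPKM are low, and it is given with its standard error (SE) and limma's adjusted p over all loci tested, called below 0.05.

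Prorp RNA (listed as 1110008L16Rik) stood at 3.49, 2.64 and 3.23 FPKM in controls and at 0.441, 0.701 and 0.555 FPKM in knockouts. The files state no depth. The steps between the lowest values place the knockout libraries at 2.06 to 2.57 times the depth of control replicate 1, against 1.32 and 1.35 for the other controls, so a value listed at 0 is less certain in a control. Knockout replicate 2 stands apart. Its 5 atrial markers sum to 14234 FPKM, against 2066 and 2334 in knockout replicates 1 and 3 and 42.5 to 121 in controls, its 5 red blood cell markers to 21895 FPKM against 622 and 2010, and its 5 epicardial markers to 19.4 FPKM against 2.59 and 1.89. The atrial sums of knockout replicates 1 and 3 are mostly Nppa (1948 and 2327 FPKM). Besides it, Myl4, Myl7 and Sln had 66.1, 43.5 and 8.52 FPKM in replicate 1, but 3.35, 0.0961 and 0 FPKM in replicate 3. Controls had at most 4.09, 1.90 and 0.767 FPKM of these 3. Bmp10 had 0.785 FPKM in replicate 1 and 4.19 FPKM in replicate 3. Cardiomyocyte RNA, which marks the tissue as heart, was abundant in all 6 libraries, with 8 markers summing to 37475 to 42731 FPKM in controls and 8240 to 17796 FPKM in knockouts.

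Collagen RNA was higher in the knockout hearts, and the rise was unequal between chains. The 44 loci summed to 362, 336 and 355 FPKM in the controls and to 813, 804 and 471 FPKM in knockout replicates 1 to 3. Every knockout exceeded every control, with knockout replicate 3 nearest to them. Of the 44 genes 22 reached 1 FPKM in at least 3 libraries and were tested. Of these 22, 10 were higher, 2 were lower and 10 did not pass, beside 16.1% of all 12181 tested loci called higher and 19.5% called lower (35.7% in either direction). After scaling all libraries to one sum, 3229 loci were higher and 1402 lower, and 12 collagens were higher and 1 lower. Every knockout exceeded every control for 12 collagens and fell below every control for 3, beside 23.6% and 28.7% of all tested loci (52.3% without overlap in either direction). The median log2 fold change of the 22 was 0.66, beside -0.02 over all tested loci. Of the 22, 20 reached 1 FPKM in all 3 controls, and Col4a3 and Col27a1 passed only together with knockout libraries. In RNA of a whole tissue, more cells of a type and more RNA per cell cannot be told apart.

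**Figure D1:**
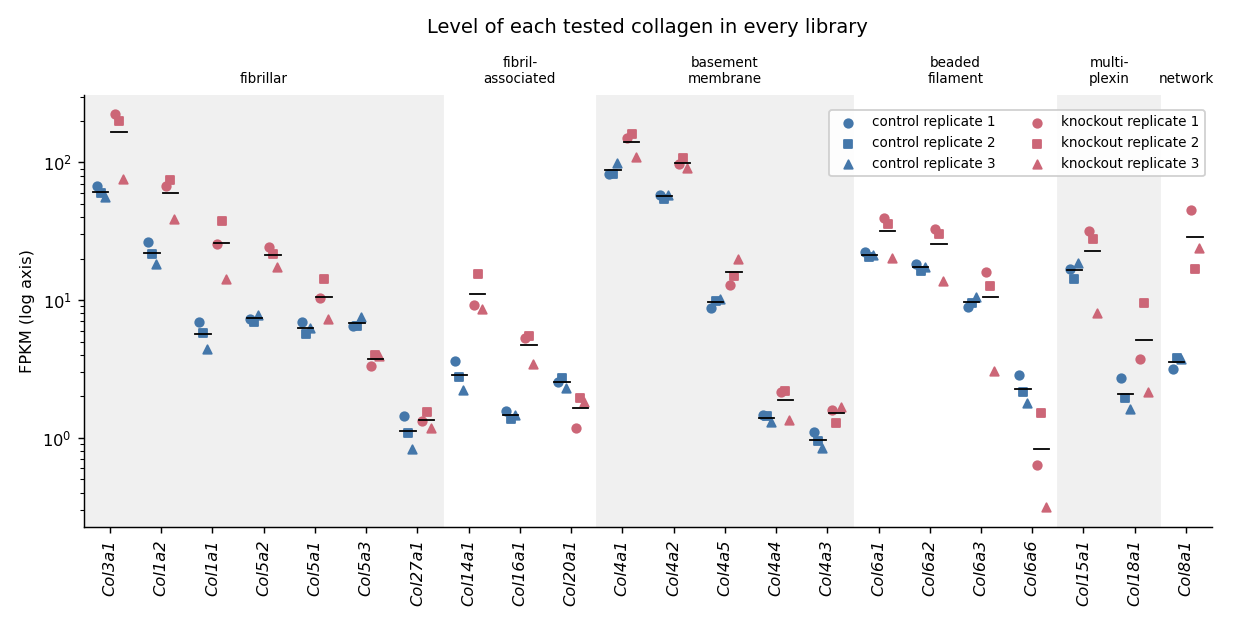
FPKM of the 22 tested collagens on a log axis, grouped by kind of assembly, with 1 point per library (control blue, knockout red, the shape giving the replicate) and a bar at each group mean. Col3a1, Col4a1 and Col4a2 are the most abundant in both groups, and knockout replicate 3 is the lowest knockout for 17 of the 22.

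The largest log2 change among the 22 tested collagens was that of Col8a1 (chr16:57624256-57754737, GRCm38.p6), a short-chain network collagen that vascular cells lay down and that is known from remodelling arteries. It had 3.13, 3.79 and 3.71 FPKM in controls and 45.0, 16.7 and 23.8 FPKM in knockouts, a ratio of means of 8.04 (log2 change 2.73 ± 0.32 SE, limma adjusted p = 0.0011). The groups were far apart, and the highest knockout was replicate 1. Of the 22 tested genes, the log2 change was largest among fibrillar genes for Col1a1, then Col5a2 and Col1a2, and among fibril-associated genes for Col14a1. Upstream sequence of 3 members that rose, Col8a1, Col1a2 and Col3a1, is shown because they are the only tested network gene, a type I chain and the most abundant fibrillar chain. It comes from RefSeq (GRCm38.p6), 250 bases up to the start site on the gene's own strand, at chr16:57754738-57754987 (minus strand), chr6:4505368-4505617 (plus) and chr1:45311288-45311537 (plus). Capitals mark the TATA box motif TATAAA, the CCAAT box (CCAAT) and the GC box core, which is GGGCGG. Each was searched on both strands, and the motifs do not overlap in these sequences.
Col8a1: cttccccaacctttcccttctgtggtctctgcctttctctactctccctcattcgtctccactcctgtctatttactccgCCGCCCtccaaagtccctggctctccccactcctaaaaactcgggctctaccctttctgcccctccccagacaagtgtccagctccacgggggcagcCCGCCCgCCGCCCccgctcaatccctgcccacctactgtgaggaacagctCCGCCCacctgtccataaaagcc
Col1a2: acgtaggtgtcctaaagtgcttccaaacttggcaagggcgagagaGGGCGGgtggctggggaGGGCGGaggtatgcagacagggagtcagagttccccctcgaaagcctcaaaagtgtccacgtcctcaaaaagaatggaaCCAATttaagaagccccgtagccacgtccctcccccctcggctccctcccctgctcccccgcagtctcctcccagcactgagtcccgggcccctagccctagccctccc
Col3a1: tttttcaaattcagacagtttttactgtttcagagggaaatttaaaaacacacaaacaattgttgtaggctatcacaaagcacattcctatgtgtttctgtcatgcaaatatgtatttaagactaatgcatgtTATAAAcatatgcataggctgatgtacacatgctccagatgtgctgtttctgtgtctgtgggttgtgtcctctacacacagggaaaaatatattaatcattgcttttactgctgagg
Col8a1 holds GGGCGG 4 times, all on the opposite strand, Col1a2 holds it 2 times beside 1 CCAAT, and Col3a1 holds only TATAAA, 117 bases before the start site. None of the motifs is in all 3 sequences. RefSeq windows were found for 35 of the 44 collagens (38 windows), and Col1a1, Col5a2 and Col14a1, which rose, were among those without. TATAAA is in 5 of these windows (13.2%), beside 12.4% of all 32851 windows of the same length. CCAAT is in 13 (34.2%), beside 33.8%, and GGGCGG in 22 (57.9%), beside 32.7%. A match is a run of letters only.

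Of the 11 fibrillar genes, 7 were tested, 4 were higher and 1 was lower, beside 16.1% and 19.5% of all tested loci. The median log2 fold change of the 7 was 1.29. Type I collagen, the main stiff fibril of heart and scar, consists of chains from Col1a1 (chr11:94936224-94953042, GRCm38.p6) and Col1a2 (chr6:4505618-4541543). Col1a1 had 6.90, 5.80 and 4.42 FPKM in controls and 25.4, 37.8 and 14.3 FPKM in knockouts, a ratio of means of 4.52 (log2 change 2.00 ± 0.33 SE, limma adjusted p = 0.0041). Col1a2 had 26.5, 21.6 and 18.3 FPKM in controls and 67.6, 73.8 and 38.6 FPKM in knockouts, a ratio of means of 2.71 (log2 change 1.38 ± 0.26 SE, limma adjusted p = 0.0066). For both genes every knockout exceeded every control, and both calls held in all 16 alternatives. Col3a1, the finer and more elastic fibril, shares its locus with AC125167.1. It lies at chr1:45311538-45349706, 24.6 kb from Col5a2 (chr1:45374331-45503282). Col3a1 had 67.1, 59.4 and 55.7 FPKM in controls and 223, 198 and 75.2 FPKM in knockouts (log2 change 1.29 ± 0.38 SE, limma adjusted p = 0.035). The groups did not overlap, but knockout replicate 3 stood just above the highest control. The Col3a1 call was lost without any single control (adjusted p = 0.077, 0.094 and 0.10 for replicates 1 to 3), without knockout replicate 1 (0.10) or 2 (0.078), with no filter on low values (0.078) and after quantile normalization (0.053).

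Of the 3 type V chains 2 changed, in opposite directions. Type V collagen is a minor fibrillar collagen that starts fibrils and limits their width. Col5a2 had 7.32, 6.97 and 7.84 FPKM in controls and 24.3, 21.7 and 17.3 FPKM in knockouts, a ratio of means of 2.86 (log2 change 1.44 ± 0.15 SE, limma adjusted p = 0.00070), the smallest adjusted p of any collagen. Col5a3 (chr9:20770050-20815117) had 6.52, 6.49 and 7.49 FPKM in controls and 3.32, 4.01 and 3.93 FPKM in knockouts, a ratio of means of 0.549 (log2 change -0.79 ± 0.13 SE, limma adjusted p = 0.0036). In both genes the groups were separate and the knockouts close together, and both calls held in all 16 alternatives. Col5a1 had 6.89, 5.67 and 6.25 FPKM in controls and 10.3, 14.2 and 7.28 FPKM in knockouts (log2 change 0.67 ± 0.22 SE, limma adjusted p = 0.052). It lay on the higher side without overlap and passed in 4 of the 16 alternatives, among them without knockout replicate 3 (adjusted p = 0.0097). Col27a1, a fibrillar collagen of cartilage and developing tissue, stood at 0.831 to 1.45 FPKM in controls and 1.17 to 1.54 in knockouts and did not pass (limma adjusted p = 0.45).

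**Figure D2:**
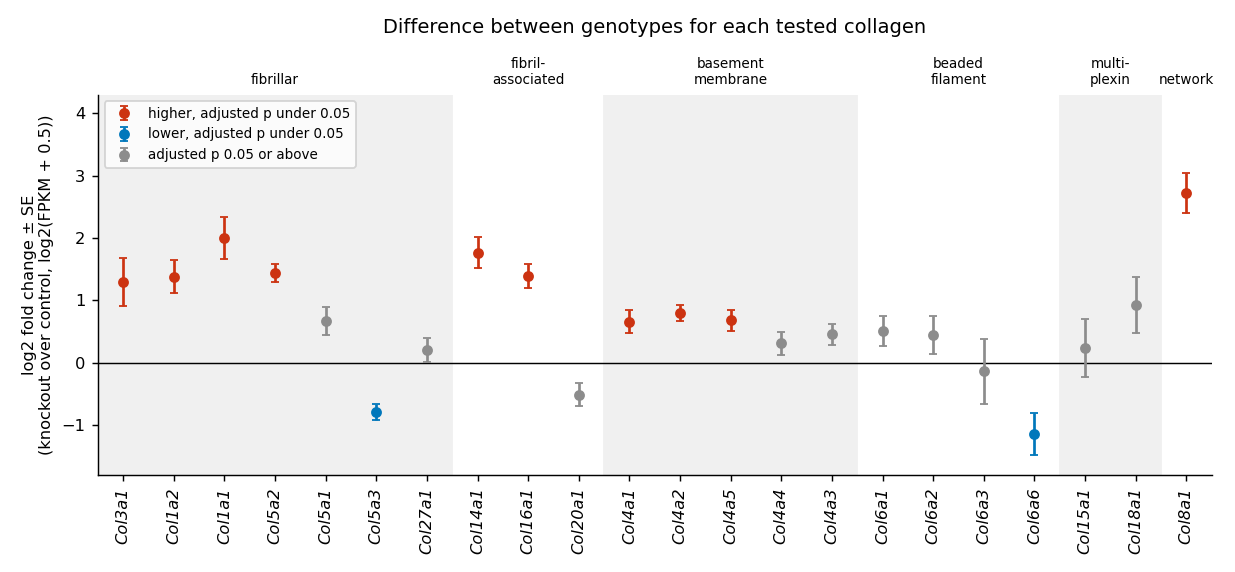
Log2 fold change of knockout over control with its standard error for the 22 tested collagens, from limma over 3 against 3 libraries, red for higher, blue for lower and grey for an adjusted p of 0.05 or above. Col8a1 is the highest at 2.73, and Col5a3 (-0.79) and Col6a6 (-1.15) are the 2 that were lower.

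Of the 9 fibril-associated genes 3 could be tested, and 2 of these were higher, beside 16.1% of all tested loci. Col14a1 (chr15:55307644-55520803), which binds decorin and fibril surfaces, had 3.58, 2.76 and 2.21 FPKM in controls and 9.16, 15.5 and 8.65 FPKM in knockouts, a ratio of means of 3.90 (log2 change 1.77 ± 0.25 SE, limma adjusted p = 0.0023). Col16a1 had 1.57, 1.37 and 1.46 FPKM in controls and 5.31, 5.50 and 3.43 FPKM in knockouts, a ratio of means of 3.23 (log2 change 1.39 ± 0.19 SE, limma adjusted p = 0.0019). In neither gene did the groups overlap, and the calls held in all 16 alternatives for Col14a1 and in the 15 that tested Col16a1. The locus of Col20a1 also carries 9230112E08Rik, so its value belongs to either. It had 2.54, 2.73 and 2.31 FPKM in controls and 1.17, 1.94 and 1.82 FPKM in knockouts (log2 change -0.52 ± 0.18 SE, limma adjusted p = 0.062), and passed without knockout replicate 2 (adjusted p = 0.045) and with array weights (0.0027).

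The main basement membrane chains were also higher. Of 6 genes 5 were tested, 3 were higher and none was lower, beside 16.1% and 19.5% of all tested loci. The median log2 fold change of the 5 was 0.66. Col4a1 and Col4a2 encode the chains of the type IV collagen found in nearly all basement membranes. Col4a1 had 82.7, 82.1 and 98.4 FPKM in controls and 150.2, 161 and 109 FPKM in knockouts (log2 change 0.66 ± 0.18 SE, limma adjusted p = 0.029). Col4a2 had 57.7, 54.0 and 57.9 FPKM in controls and 97.8, 107 and 91.3 FPKM in knockouts (log2 change 0.80 ± 0.12 SE, limma adjusted p = 0.0032). The knockouts lay above the controls for both, and the Col4a2 call held in all 16 alternatives. That of Col4a1 was lost without any single control (adjusted p = 0.094, 0.11 and 0.054 for replicates 1 to 3), without knockout replicate 1 (0.084), with the replicate block (0.071) and with no filter (0.050). Col4a5, of the chain set found in kidney, smooth muscle and other specialised membranes, had 8.81, 9.91 and 10.2 FPKM in controls and 12.8, 15.1 and 19.9 FPKM in knockouts (log2 change 0.68 ± 0.17 SE, limma adjusted p = 0.019). Here knockout replicate 3 was the highest library, unlike for most collagens. The call was lost without any single control (adjusted p = 0.072, 0.059 and 0.052 for replicates 1 to 3).

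Col4a3 and Col4a4, partners of Col4a5 in kidney, stood near the limit of the test and did not pass. Col4a3 had 1.10, 0.950 and 0.843 FPKM in controls and 1.59, 1.28 and 1.67 FPKM in knockouts (limma adjusted p = 0.070), and passed in 3 of the alternatives. Col4a4 had 1.31 to 1.47 FPKM in controls and 1.35 to 2.18 FPKM in knockouts (limma adjusted p = 0.23), with groups that overlapped at knockout replicate 3. Type IV genes lie in head-to-head pairs. The RefSeq start sites of Col4a2 (plus strand) and Col4a1 (minus strand) are 21 bases apart on chromosome 8 (GRCm38.p6). The stretch from Col4a2's to Col4a1's, at chr8:11312805-11312826, is shown because both genes read across it, in opposite directions. The annotated genes overlap here, so this stretch lies inside both and upstream of neither. It is given on the plus strand with a GGGCGG match in capitals.
Col4a1 and Col4a2: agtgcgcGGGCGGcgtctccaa
Both genes of this pair were called higher. In the pair of Col4a5 and Col4a6 on chromosome X, whose annotated ends are 1274 bases apart, Col4a5 was higher, while Col4a6 was too low for the test at 0.229 to 0.414 FPKM in controls and 0.294, 1.65 and 0.284 FPKM in knockouts. Its 1 high value was in knockout replicate 2.

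Of the 6 beaded filament genes 4 were tested, none was higher and 1 was lower, beside 16.1% and 19.5% of all tested loci. The median log2 fold change of the 4 was 0.15. Type VI collagen forms microfibrils around cells from chains of Col6a1, Col6a2 and another gene such as Col6a3. Col6a1 had 22.2, 20.5 and 21.3 FPKM in controls and 39.6, 35.6 and 20.1 FPKM in knockouts (log2 change 0.51 ± 0.24 SE, limma adjusted p = 0.14). Col6a2 had 18.2, 16.4 and 17.4 FPKM in controls and 32.5, 30.0 and 13.7 FPKM in knockouts (log2 change 0.45 ± 0.30 SE, limma adjusted p = 0.28). Col6a3 had 8.84, 9.56 and 10.6 FPKM in controls and 16, 12.7 and 3.07 FPKM in knockouts (log2 change -0.14 ± 0.52 SE, limma adjusted p = 0.85). For these 3 genes knockout replicates 1 and 2 lay above every control and knockout replicate 3 below every control. Without knockout replicate 3 all 3 passed as higher, with adjusted p = 0.0041, 0.0037 and 0.032 and, for Col6a3, a log2 fold change of 0.54. Col6a6, an alternative to Col6a3, had 2.86, 2.15 and 1.80 FPKM in controls and 0.639, 1.52 and 0.314 FPKM in knockouts (log2 change -1.15 ± 0.34 SE, limma adjusted p = 0.033). Its groups did not overlap, but the call was lost without any library except knockout replicate 2 (adjusted p = 0.061 to 0.11), with no filter (0.077) and after scaling to one sum (0.072).

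The 2 multiplexin genes did not pass. Col15a1, which links muscle and capillary basement membranes to the surrounding matrix, had 16.7, 14.2 and 18.6 FPKM in controls and 31.8, 27.8 and 8.04 FPKM in knockouts (log2 change 0.23 ± 0.46 SE, limma adjusted p = 0.72). As for type VI, knockout replicates 1 and 2 lay above and replicate 3 below every control, and without replicate 3 the gene passed as higher (log2 fold change 0.84, adjusted p = 0.0084). Col18a1, the precursor of endostatin, had 2.71, 1.93 and 1.61 FPKM in controls and 3.76, 9.52 and 2.14 FPKM in knockouts (log2 change 0.92 ± 0.45 SE, limma adjusted p = 0.15). Its highest value was in knockout replicate 2, the library with the most atrial, blood and epicardial RNA, whose part in the value was not tested. Without knockout replicate 3 it passed as higher (log2 fold change 1.36, adjusted p = 0.035).

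The knockout libraries differed from each other in their collagens. Replicate 1 lay above every control for 18 of the 22 tested genes, replicate 2 for 19 and replicate 3 for 12, or 81.8%, 86.4% and 54.5%, beside 36.8%, 37.0% and 39.4% of all 12181 tested loci. Replicate 3 lay below every control for 7 of the 22 (31.8%), beside 40.7% of all tested loci, and replicates 1 and 2 for 3 each (13.6%), beside 40.9% and 43.8%. The median log2 ratio to the control mean was 1.59, 1.50 and 0.31 for the 7 fibrillar genes in knockout replicates 1 to 3, and 0.79, 0.55 and -0.92 for the 4 beaded filament genes. For the 5 basement membrane genes it was 0.52, 0.62 and 0.56. Among these genes replicate 3 was the lowest knockout for Col4a1, Col4a2 and Col4a4, and the highest for Col4a3 and Col4a5. All 6 basement membrane genes summed to 265, 289 and 223 FPKM in knockout replicates 1 to 3, and to 149 to 169 FPKM in controls. Leaving out knockout replicate 3 raised the count of collagens called higher from 10 to 16 and left 1 lower. In that fit 1770 of all 12181 tested loci were higher and 2336 lower, against 1966 and 2377 with all libraries. Leaving out knockout replicate 2, the library that stood apart in atrial and blood RNA, gave 9 higher and 3 lower, with 2153 and 2389 of all tested loci.

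**Figure D3:**
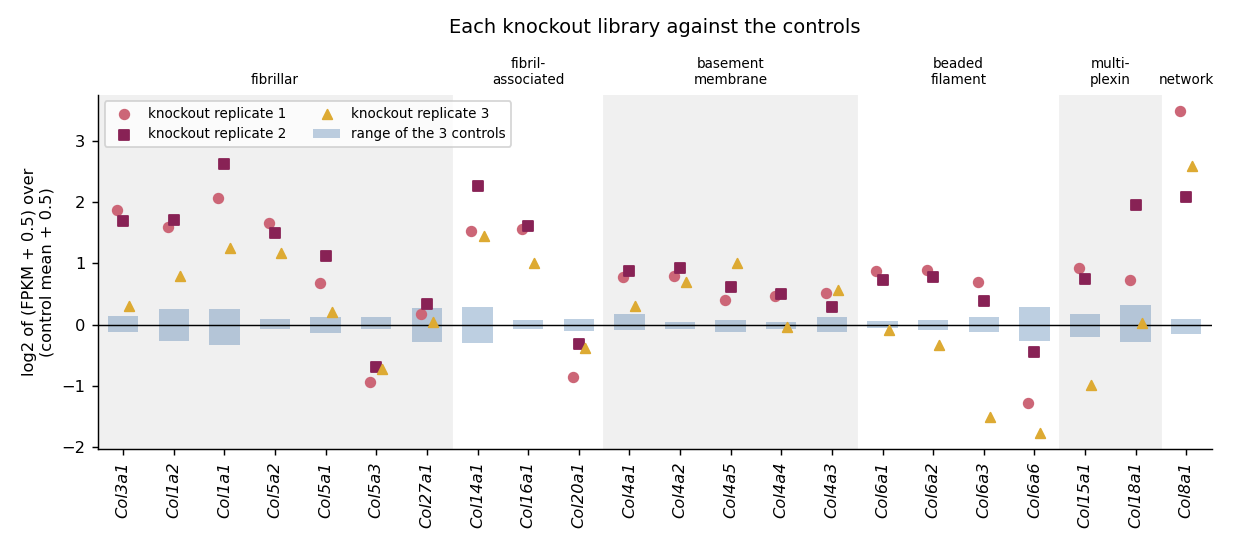
Log2 ratio of each knockout library to the mean of the 3 controls, with 0.5 FPKM added to both, for the 22 tested collagens, with a blue bar for the range of the controls. Knockout replicate 3 (yellow triangles) lies below the control range for Col6a1, Col6a2, Col6a3 and Col15a1, where the other 2 knockouts lie above it.

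Ratios of 2 chains within a library do not depend on the scaling between libraries, and 5 were compared. The FPKM ratio of Col1a1 to Col1a2 was 0.261, 0.268 and 0.241 in controls and 0.376, 0.512 and 0.370 in knockouts, a log2 difference of 0.69. The ratio of Col3a1 to Col1a1 was 9.72, 10.3 and 12.6 in controls and 8.79, 5.24 and 5.27 in knockouts, a log2 difference of -0.79. The ratio of Col5a1 to Col5a2 was 0.941, 0.814 and 0.798 in controls and 0.426, 0.652 and 0.422 in knockouts, a log2 difference of -0.79. In these 3 the groups did not overlap, as for 52.3% of the single loci tested. Each has an exact two-sided permutation p of 0.10, the smallest that 3 against 3 can give, and 0.17 after Benjamini-Hochberg adjustment over the 5, so none can pass. The ratio of Col4a1 to Col4a2 was 1.43, 1.52 and 1.70 in controls and 1.54, 1.50 and 1.19 in knockouts (exact permutation p = 0.50, adjusted 0.63). The ratio of Col6a1 to Col6a2 was 1.21, 1.25 and 1.22 in controls and 1.22, 1.19 and 1.46 in knockouts (exact permutation p = 0.90). The groups of these 2 ratios overlapped.

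**Figure D4:**
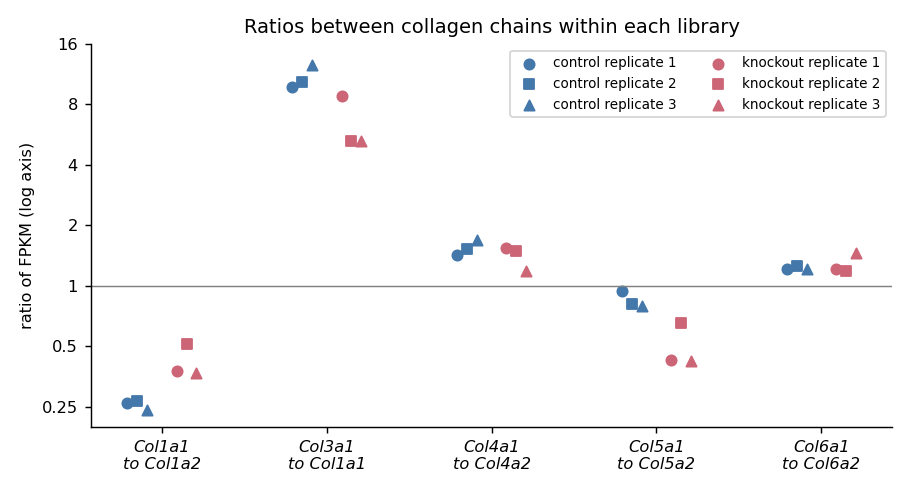
Ratio of FPKM between 2 collagen chains in each of the 6 libraries, on a log axis with a line at equal levels. The groups are separate for Col1a1 to Col1a2 (knockouts higher), Col3a1 to Col1a1 and Col5a1 to Col5a2 (knockouts lower), and overlap for the type IV and type VI pairs.

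The order of the chains by level also moved. Col4a1 was the most abundant collagen of the controls at 87.7 ± 9.26 FPKM (SD, n = 3), followed by Col3a1 at 60.7 ± 5.80 and Col4a2 at 56.5 ± 2.19, and the last 2 overlapped in their libraries. In knockouts Col3a1 led at 165 ± 79.2 FPKM, then Col4a1 at 140 ± 27.6 and Col4a2 at 98.8 ± 8.01, and the spread of Col3a1 covered both. Col8a1 went from rank 14 of 44 in controls to rank 6 in knockouts, and Col1a1 from rank 13 to 7. Fibrillar chains made up 34.1%, 32.3% and 28.8% of summed collagen FPKM in controls and 43.8%, 43.8% and 33.6% in knockouts. Basement membrane chains made up 42.1% to 47.6% in controls and 32.6%, 35.9% and 47.5% in knockouts. Knockout replicate 3 thus kept a basement membrane share inside the range of the controls.

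The 22 genes under the filter include several that differed between groups at low levels. Col6a4 was listed at 0 in all 6 libraries, and 12 of the 22, Col6a4 included, stayed under 0.5 FPKM in every library. In a fit with no filter, over 22503 loci, 4 of them were called higher and 1 lower, beside 8.00% of all loci higher and 9.45% lower. Col12a1, a large fibril-associated collagen of tendon and healing tissue, had 0.288, 0.207 and 0.207 FPKM in controls and 1.93, 1.82 and 0.894 FPKM in knockouts (log2 change 1.44 ± 0.24 SE, limma adjusted p = 0.012). Col8a2, the partner chain of Col8a1, had 0.107, 0.146 and 0.0958 FPKM in controls and 0.882, 0.667 and 0.432 FPKM in knockouts (limma adjusted p = 0.015). Every knockout lay above every control in both. Col9a2, a fibril-associated chain of cartilage, was listed at 0.0324, 0 and 0 FPKM in controls and had 0.765, 0.220 and 0.445 FPKM in knockouts (limma adjusted p = 0.028). Col11a1, a fibrillar chain of cartilage, was listed at 0, 0.00901 and 0.00886 FPKM in controls and had 0.230, 0.132 and 0.0811 FPKM in knockouts (limma adjusted p = 0.045). Col22a1, found at the junction of muscle and tendon, had 0.326, 0.341 and 0.260 FPKM in controls and 0.0756, 0.0201 and 0.116 FPKM in knockouts (limma adjusted p = 0.016). The greater depth of the knockouts runs with the listed zeros of Col9a2 and Col11a1, and its part was not tested, while Col22a1 was lower in the deeper libraries.

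The remaining low members did not pass in that fit. Col2a1, the fibrillar collagen of cartilage, had 0.0381, 0.147 and 0.289 FPKM in controls and was listed at 0 in all 3 knockouts (limma adjusted p = 0.11). Col13a1, a transmembrane collagen, had 0.226 to 0.688 FPKM in controls and 0.266, 1.35 and 0.414 FPKM in knockouts, with its highest value, as for Col4a6, in knockout replicate 2. Col11a2 had 0.774 to 1.20 FPKM in controls and 0.182 to 0.832 in knockouts. Col26a1 (0.0260 to 1.22 FPKM in controls), Col28a1 and Col7a1, whose locus also carries Mir711, overlapped between groups and stayed at or under 1.22 FPKM. Col9a1, Col9a3, Col10a1, Col17a1, Col19a1, Col23a1, Col24a1, Col25a1 and Col6a5 reached at most 0.608 FPKM, and Col9a1 and Col10a1 were listed at 0 in all controls.

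Enzymes that crosslink collagen were higher in knockouts. Lysyl oxidases oxidise lysines so that neighbouring molecules bond. In this list 5 of 5 members were higher, beside 16.1% of all tested loci, with a median log2 fold change of 1.06. They summed to 11.0 to 13.9 FPKM in controls and to 30.1, 28.6 and 32.2 FPKM in knockout replicates 1 to 3, so that replicate 3, the lowest knockout in summed collagen, was the highest here. Lox rose from 1.14 ± 0.176 FPKM (SD, n = 3) to 5.27 ± 2.71 (log2 change 1.71 ± 0.31 SE, limma adjusted p = 0.0056), and Loxl4 had 0.225 ± 0.0545 and 2.69 ± 0.687 (log2 change 2.12, limma adjusted p = 0.00068). Loxl4 reached 1 FPKM in knockouts only, so it could be tested only because it was high there. Loxl1 rose from 7.30 ± 1.58 to 15.2 ± 1.03 FPKM and Loxl3 from 1.28 ± 0.301 to 3.22 ± 0.600. Loxl2, named after its values were seen, passed narrowly (limma adjusted p = 0.049) and lost its call without any library except knockout replicate 3, leaving 4 of 5. Of the 5 tested genes for removal of propeptides, which lets procollagen form fibrils, 2 were higher and none was lower. Over all tested loci 16.1% were higher and 19.5% lower. Adamts2, which cuts the amino propeptide, rose from 3.09 ± 0.424 to 8.33 ± 2.09 FPKM (log2 change 1.28 ± 0.19 SE, limma adjusted p = 0.0025). Pcolce2, an enhancer of carboxyl propeptide removal, rose from 4.17 ± 0.347 to 6.32 ± 1.05 (adjusted p = 0.026), a call lost without any single control (0.052, 0.095 and 0.075), with the replicate block (0.065) and with no filter (0.054).

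Some genes that fold procollagen were called higher and some lower. Of 18 tested members of folding and modification, 3 were higher and 2 lower, with a median log2 fold change of 0.12. Over all tested loci 16.1% were higher and 19.5% lower, with a median of -0.02. After scaling to one sum 6 were higher and 1 lower, where 3229 of all 12181 tested loci were higher and 1402 lower. Leaving out control replicate 1 or 2 left 1 higher and 1 lower, with 1276 or 1212 of all loci higher and 1529 or 1409 lower. P3h2, a prolyl 3-hydroxylase, rose from 1.40 ± 0.452 to 3.82 ± 1.03 FPKM (log2 change 1.19 ± 0.24 SE, limma adjusted p = 0.0091), and Ppib, a prolyl isomerase of the endoplasmic reticulum, from 43.3 ± 3.92 to 65.9 ± 7.78. P4ha1, a catalytic chain of prolyl 4-hydroxylase, which stabilises the triple helix, fell from 31.1 ± 5.68 to 16.9 ± 3.28 FPKM (log2 change -0.86 ± 0.19 SE, limma adjusted p = 0.011). Its partner P4hb rose from 58.9 ± 2.79 to 83.3 ± 10.0 (adjusted p = 0.027). P4ha2 of the same list, named after its values were seen, did not pass (20.9 ± 2.03 and 23.0 ± 12.4 FPKM, limma adjusted p = 0.998). The calls of Ppib and P4hb were lost without control replicate 1 or 2 (adjusted p = 0.060 and 0.068 for Ppib, 0.076 and 0.12 for P4hb), and that of P4hb also without control replicate 3 (0.077) and with the replicate block (0.064). Of 7 tested export genes none was higher and 2 were lower, beside 16.1% and 19.5% of all tested loci. Sar1b, the GTPase that starts transport vesicles, fell from 58.3 ± 1.97 to 35.1 ± 5.21 FPKM (limma adjusted p = 0.0074), and Klhl12, which helps enlarge them for procollagen, from 9.71 ± 0.392 to 7.20 ± 0.880 (0.038). The Klhl12 call was lost in 8 of the alternatives, among them scaling to one sum (0.24).

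Of 8 tested small proteoglycans that bind fibrils, 2 were higher and 1 lower, beside 16.1% and 19.5% of all tested loci. These shares also stand beside the receptor and breakdown counts that follow. Bgn (biglycan) rose from 27.3 ± 0.811 to 100.4 ± 12.5 FPKM (log2 change 1.85 ± 0.13 SE, limma adjusted p = 0.00024), and Fmod (fibromodulin) from 0.116 ± 0.0450 to 2.54 ± 1.01, reaching 1 FPKM in knockouts only. Ogn (osteoglycin) fell from 58.7 ± 1.96 to 30.2 ± 4.68 FPKM (log2 change -0.96 ± 0.14 SE, limma adjusted p = 0.0025). Of 6 tested collagen receptors 2 were higher. They were Ddr1, a receptor kinase, from 3.39 ± 0.703 to 6.90 ± 3.03 FPKM (limma adjusted p = 0.044), and Lair1, an inhibitory receptor of leukocytes, from 0.823 ± 0.274 to 1.82 ± 0.0926 (0.017). Lair1 reached 1 FPKM in knockouts only, so it could be tested only through them. The Ddr1 call was lost without any single control (adjusted p = 0.12, 0.059 and 0.13) and with no filter (0.096). Of 6 tested genes of breakdown and uptake 2 were higher and none was lower. Ctsk (cathepsin K, a collagen-cutting protease of the lysosome) rose from 1.52 ± 0.433 to 10.7 ± 3.74 FPKM (log2 change 2.44 ± 0.27 SE, limma adjusted p = 0.00098), and Mrc2, a receptor that takes collagen up, from 3.71 ± 0.145 to 7.26 ± 1.94 (0.014, or 0.051 without control replicate 2).

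**Figure D5:**
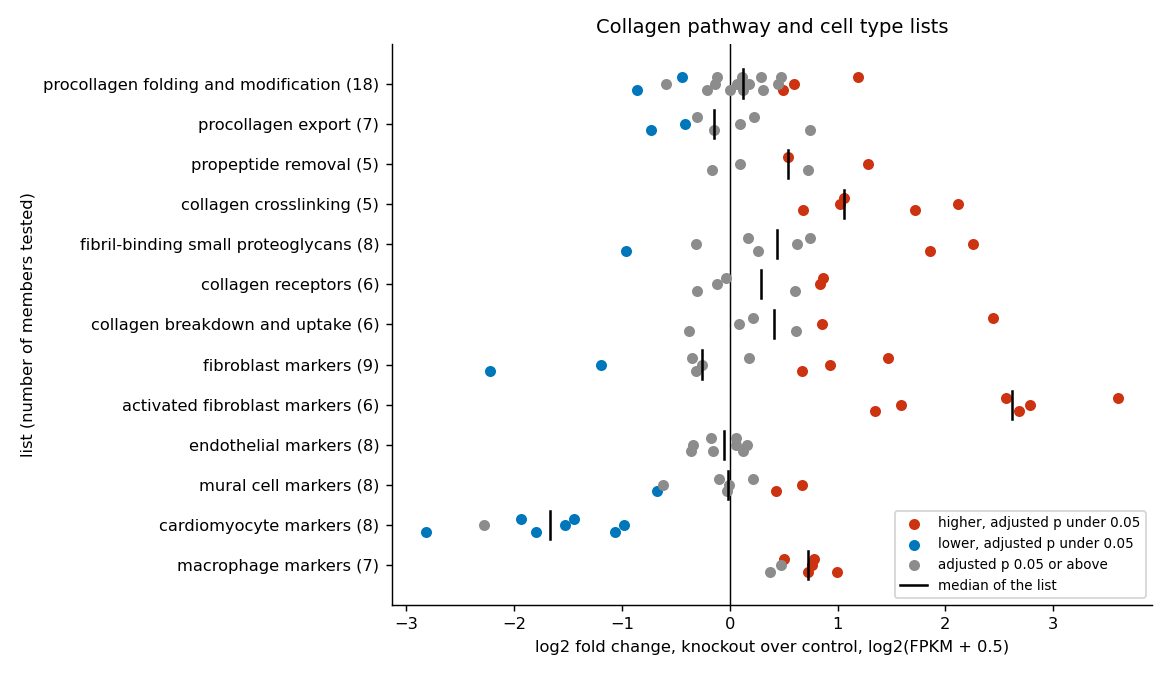
Log2 fold change of each tested member of 7 collagen pathway lists and 6 cell type lists, red for higher, blue for lower, grey for an adjusted p of 0.05 or above, with a bar at the list's median. The crosslinking, activated fibroblast and macrophage lists lie wholly above 0 and the cardiomyocyte list wholly below it.

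Markers of several cell types also differed between the groups, and their part in the collagen values was not tested. All 6 tested markers of activated fibroblasts (of 8 fixed) were higher, beside 16.1% of all tested loci, with a median log2 fold change of 2.62. They were also higher in each fit that left out 1 library. The 8 summed to 14.4 to 17.0 FPKM in controls and to 170, 92.8 and 96.7 FPKM in knockout replicates 1 to 3. For collagens these replicates had 813, 804 and 471 FPKM. Of the 6 tested markers 3 (Ltbp2, Thbs4 and Comp) reached 1 FPKM in knockouts only, so they could be tested only because they were high there. The count and the median of the list include these 3, while Postn, Meox1 and Cilp reached 1 FPKM in controls too. Postn (periostin) rose from 9.53 ± 0.934 to 67.6 ± 30.4 FPKM (log2 change 2.68 ± 0.28 SE, limma adjusted p = 0.00081), and Cilp from 1.38 ± 0.223 to 25.4 ± 15.1. Comp rose from 0.521 ± 0.143 to 7.00 ± 3.18 FPKM and Ltbp2 from 0.374 ± 0.268 to 4.54 ± 0.759. General fibroblast markers were mixed, with 3 of 9 tested higher and 2 lower, beside 16.1% and 19.5% of all tested loci, and a median of -0.26. Mgp rose from 126 ± 3.27 to 357 ± 104 FPKM and supplies most of the list's sum, 220 to 239 FPKM in controls and 380 to 593 in knockouts. Scara5 and Clec3b fell by 2.22 and 1.20 on the log2 scale, and Tcf21, a fibroblast transcription factor, rose by 0.93 (limma adjusted p = 0.045, or 0.077 to 0.13 without any single control).

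Endothelial markers, from cells that make type IV collagen, did not pass in either direction. By limma 0 of 8 were called at an adjusted p of 0.05, with 2 at an unadjusted p under 0.05 and at most 2 called, both lower, in any alternative. They summed to 333 to 369 FPKM in controls and 302 to 376 FPKM in knockouts. Pecam1 had 45.9 ± 2.27 and 50.7 ± 9.43 FPKM, and Egfl7 had 133 ± 12.2 and 140.4 ± 27.3. Over all tested loci 16.1% were higher and 19.5% lower (35.7% in either direction). Of 8 mural cell markers 2 were higher and 1 lower, and they summed to 282 to 311 FPKM in controls and 205 to 255 FPKM in knockouts. Cspg4, a pericyte surface proteoglycan, rose by 0.67 on the log2 scale (limma adjusted p = 0.0087), Pdgfrb by 0.43 (0.037) and Rgs5 fell by 0.68 (0.043), and the calls of Pdgfrb and Rgs5 were lost without any single control (adjusted p = 0.086 to 0.12), with the replicate block (0.082 and 0.056) and with no filter (0.050 and 0.078), and that of Rgs5 also after scaling to one sum (0.10) and that of Pdgfrb after quantile normalization (0.051). Of 7 macrophage markers 5 were higher and none lower, with sums of 74.1 to 76.9 FPKM in controls and 117, 130 and 133 FPKM in knockout replicates 1 to 3. Cd68 rose from 3.43 ± 0.289 to 7.33 ± 0.664 FPKM (log2 change 0.99, limma adjusted p = 0.0014), and Csf1r, C1qb and C1qa rose by 0.78, 0.76 and 0.73 on the log2 scale.

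Of 8 cardiomyocyte markers 7 were lower, and every knockout lay below every control for all 8, beside 19.5% and 28.7% of all tested loci. Pln (phospholamban), Mb (myoglobin), Ryr2 (the calcium release channel) and Tnni3 (troponin I) fell by 2.81, 1.94, 1.79 and 1.53 on the log2 scale. Of the 8, 3 were lower without control replicate 2 or 3, 4 after quantile normalization and 2 with no filter. Without those controls the Mb call was lost (adjusted p = 0.053 and 0.050), and with no filter those of Mb and Tnni3 (0.11 and 0.073). FPKM are relative to the depth of a library, so lower cardiomyocyte RNA can go with a larger share for other cells. Summed FPKM were not equal, at 523499 to 589995 in controls and 456493 to 516068 in knockouts. The part of lower cardiomyocyte RNA in the collagen values was not tested. Of the atrial list 1 of 3 tested markers was higher, Nppa, at 40.6 to 120 FPKM in controls and 1948, 10527 and 2327 FPKM in knockouts. Myl4 had 1.33 to 4.09 FPKM in controls and 66.1, 2290 and 3.35 FPKM in knockouts (limma adjusted p = 0.089). Myl7 was listed at 0 in control replicate 2, and Sln at 0 in control replicates 2 and 3 and knockout replicate 3. Of the epicardial list only Wt1 could be tested (2.21 ± 0.303 and 2.48 ± 1.20 FPKM, limma adjusted p = 0.86), and Upk1b was listed at 0 in all controls. None of the 5 red blood cell markers was called, with Hbb-bs at 978 to 1839 FPKM in controls and 378, 13872 and 1188 FPKM in knockouts, and Hba-a1 at 320 to 565 and at 149.8, 4312 and 496 FPKM. None of the 6 valve and cartilage markers reached the filter, and the list summed to at most 2.22 FPKM in any library, with Chad at 0 in all controls.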

How the data were processed

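The series holds 12 samples. The 6 total RNA libraries (3 control, 3 knockout) were used, and the 6 libraries of mitochondrial RNA ends (PARE) were not analysed here. Per the labels' protocols, rRNA was depleted with Ribo-Zero and libraries were primed with random hexamers (TruSeq). No label ties a replicate to a single animal, so p-values measure only how these samples spread, which may be technical. The deposited values are FPKM per locus, 1 library per file, per the file headers. Per the submitters' processing notes, Cuffdiff, Cufflinks 2.2.1, StringTie 1.1.0 and HISAT 0.1.6 are among the tools named, and GRCm38 and mm10 the builds. What each tool did, the annotation, the scaling and the use of strand were not given in the sources used here.

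Values were tested as log2(FPKM + 0.5), unscaled, for the 12181 loci that reached 1 FPKM in 3 or more libraries, with limma 3.58.1 in R 4.3.3 (empirical Bayes, mean-variance trend, two-sided, Benjamini-Hochberg adjusted over all loci). Chain ratios were compared by an exact permutation test (SciPy 1.17.1). Relative depth is the most frequent ratio between libraries over low pseudogene and small RNA loci (372 to 425 per pair, of which 50 to 95 lay at it), and whole reads could not be recovered. All 44 collagen symbols were found in RefSeq (GRCm38.p6), which gave positions and promoters. The rule names every tested collagen and, of each of 18 other lists (144 genes), at most 4 called members, those that changed most, or where fewer than 2 passed the 2 highest in level. The result of 1 of these lists is not reported here. Members and lists were chosen with earlier results of these data known. Alternatives were other pseudocounts, filters, scalings and variance models, the replicate block and leaving out each library.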

Additional observations from a re-analysis of the deposited data

How the results depend on the processing

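Of the 12 collagen calls, 8 (Col8a1, Col1a1, Col1a2, Col5a2, Col5a3, Col14a1, Col16a1 and Col4a2) kept direction and threshold in every alternative in which they were tested, and 4 (Col3a1, Col4a1, Col4a5 and Col6a6) lost the threshold in some. Of the 10 not called, 9 passed in some alternative, and Col27a1 in none. Collagens called higher were 9 to 12 in the settings that kept all libraries, except 16 with array weights, and 7 to 16 with 1 library left out. Collagens called lower were 1 with a filter of 5 FPKM (Col6a6 was not tested) and 1 after scaling to one sum, and 1 to 3 with 1 library left out. Scaling to one sum moved the median of all loci from -0.02 to 0.19 and gave 3229 loci higher and 1402 lower, against 1966 and 2377, with 12 collagens higher. With 1 library left out, loci called higher were 1212 to 2153 and lower 1409 to 2389.

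Directions turned for Col6a3 (log2 change 0.08 scaled to one sum, 0.468 with array weights), Wt1 (-0.087), Hbb-bs (-1.029) and Hba-a1 (-0.774), the last 3 with array weights. With 1 library left out, ranges that cross 0 were -0.563 to 0.542 for Col6a3 (positive without knockout replicate 3), -0.12 to 0.839 for Col15a1 (negative without knockout replicate 1 or 2) and -0.033 to 0.116 for the chain ratio Col6a1 to Col6a2 (negative without knockout replicate 3). They were -0.03 to 0.234 for Egfl7, -0.015 to 0.243 for Pecam1, -0.242 to 0.243 for Wt1, -0.851 to 1.747 for Hbb-bs and -0.541 to 1.88 for Hba-a1, all negative without knockout replicate 2, Egfl7 also without knockout replicate 1 or control replicate 2 and Wt1 also without control replicate 2. The cause was not tested. Same-numbered libraries did not deviate together (Pearson r -0.083, -0.064 and -0.006 over loci). These values do not tell whether the numbers pair the samples, since differences between single libraries can cover a shared one. With the replicate block 9 collagens were higher and 2 lower, with 1536 and 1807 of all loci. Depth is stated nowhere, so no counting interval could be given for collagens under 1 FPKM.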
